A study of Gadus morhua with 47 samples.

Results

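The 30 transcripts described here had the most negative difference between liver slices with benzo[a]pyrene (BaP) at 1 µM and slices without BaP, out of 22100 transcripts measured in Atlantic cod (Gadus morhua). They were chosen from their own measured values. Per fish, the mean log2(CPM + 0.1) of the slices without BaP was subtracted from that of the slices with BaP at 1 µM, where CPM is counts scaled to a library total of 1e+06 mapped counts. Slices with BaP held BaP alone or BaP with ethynylestradiol (EE2). Slices without BaP held the vehicle dimethyl sulfoxide (DMSO) or EE2 at 10 nM or 1 µM. Of 13735 transcripts with a mean of 1 to 500 CPM over the 26 slices used, 235 (1.71%) lay below 0 in all 6 fish, and the 30 with the lowest mean were kept. The choice fixes these differences, so they are given as a description. In the test for BaP at 1 µM over all 47 libraries, 0 of the 30 fell by edgeR and 2 by DESeq2, against 0.00561% and 0.0729% of all transcripts tested. Without 4 libraries that stood apart, 7 fell by edgeR, against 0.0837% of all, and some of the 7 may be near-identical copies that share reads. The choice used this contrast, so these counts are a description. Another test found 7 of the 30 to rise with EE2, against 0.438% of all, a difference that the choice partly used. The set is therefore not named for an effect of BaP: its members are called the chosen transcripts and are numbered by rank, with rank 1 the most negative.

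The series measured the transcriptome of precision-cut liver slices, thin sections of living tissue held in culture, in 47 libraries from 8 fish, 5 males and 3 females. The 7 groups were DMSO alone (8 slices), EE2 at 10 nM (7) and at 1 µM (6), BaP at 10 nM (7) and at 1 µM (7), and a mixture of both compounds, called Mix, at 10 nM each (6) and at 1 µM each (6). A replicate number is a fish, because sex and both weights are the same for it in every group. No strain or genotype is given for any group, and the fish weighed 346 to 820 g with livers of 16 to 93 g. Fish age, the culture medium and the length of exposure are not stated in the labels. The choice used fish 1 to 6, of which 4 were male and 2 female, with 11 slices on the side with BaP and 15 on the side without. The DMSO slice of fish 2 was left out of it.

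BaP, formed when organic matter burns incompletely, is a ligand of the aryl hydrocarbon receptor, a transcription factor that moves to the nucleus when bound and switches on detoxifying enzymes in liver. EE2 is a synthetic estrogen. In the liver of egg-laying fish, estrogen receptors switch on genes for yolk and eggshell proteins, in males as well as females. The files pair no gene name with a transcript identifier, so neither the roles of the chosen transcripts nor the liver identity of the slices could be checked against named genes, and no sequence is shown. A slice holds several cell types, so fewer cells of a type and less RNA per cell cannot be told apart.

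Libraries held 36.6 M to 67.0 M mapped counts (M, mega), with a median of 49.1 M, and 3 counts corresponded to 0.0448 to 0.0820 CPM. The DMSO slice of fish 2, the BaP 10 nM slice of fish 6, the BaP 1 µM slice of fish 7 and the Mix 1 µM slice of fish 8 stood apart, with TMM scaling factors of 0.572 to 0.758 against 0.832 to 1.28 in the others. As a check of exposure, ENSGMOT00000000331.1, picked because earlier results of these data showed it to rise with BaP, had a lowest, median and highest level of 651, 1149 and 2715 CPM with BaP 1 µM, and of 397, 900 and 1609 CPM with Mix 1 µM. Its highest level in any slice without BaP was 102 CPM, so no slice with BaP at 1 µM overlapped those without.

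The largest mean difference was -1.71 at rank 1, ENSGMOT00000020834.1, a coding sequence of 1188 bases. Rank 2, ENSGMOT00000014815.1, a coding sequence of 870 bases, had a mean of -1.59. Only ranks 1 to 4 lay under -1, and the median of the 30 means was -0.62 against -0.0047 over all 13735 transcripts. At the limit of the choice, ranks 29 and 30 had means of -0.515 and -0.506, and the transcripts at ranks 31 and 32, just outside, had -0.496 and -0.494. No clear gap thus separated the transcripts inside from those outside. Read with the sides of the comparison swapped, 199 transcripts (1.45%) lay above 0 in all 6 fish, of which 15 had a mean over 1 and the largest a mean of 5.36. Which side held more transcripts depended on the scaling and on 1 library, with 267 below and 303 above on TMM-scaled CPM, and 127 below and 205 above with the DMSO slice of fish 2. Some of the 30 were below 0 in all 6 fish only narrowly, with a smallest fall of -6.6e-05 at rank 30, -0.0028 at rank 19 and -0.0035 at rank 28. Of the 30, 26 stayed below 0 in all 6 fish on TMM-scaled CPM, 27 with 1 CPM added instead of 0.1, and 19 with that DMSO slice.

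**Figure D1:**
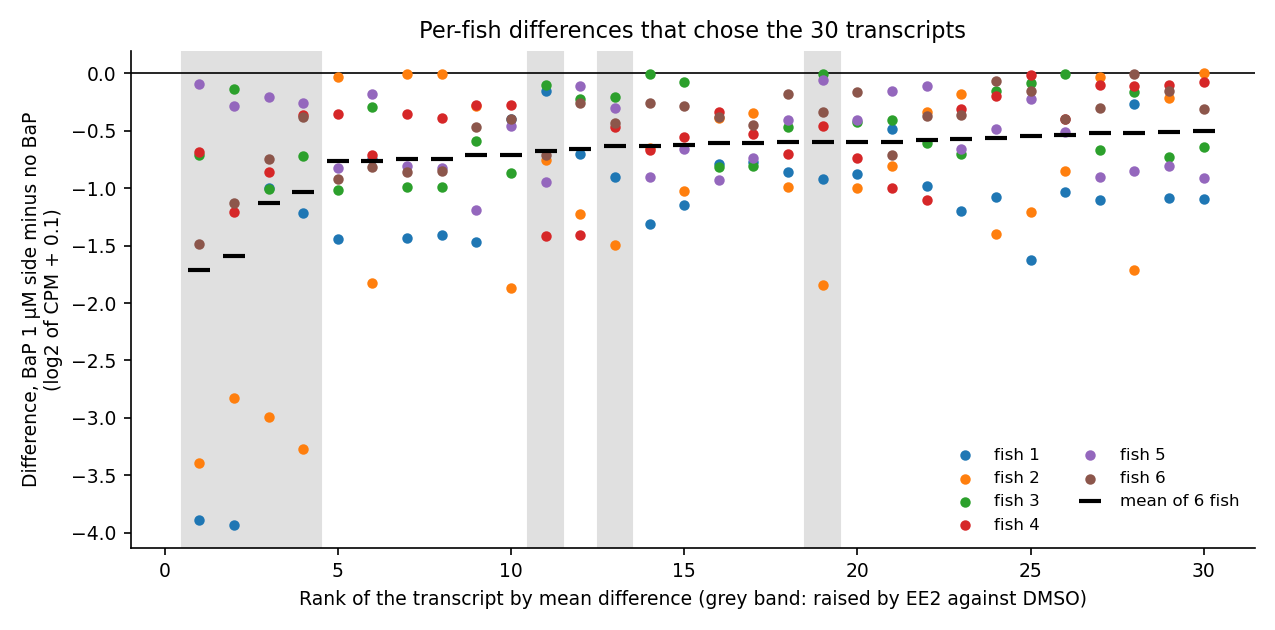
Per-fish difference (log2 of CPM + 0.1, slices with BaP at 1 µM minus slices without BaP) of the 30 chosen transcripts, ordered by rank. Points are fish 1 to 6, dashes are the mean of the 6, and grey bands mark the 7 transcripts that rose with EE2. The 4 means under -1 all stand in a grey band, and there fish 1 and fish 2 reach -3.93 and -3.40.

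Fish 1 and 2 carried much of the size of these differences. The median over the 30 transcripts was -1.06 in fish 1 and -0.92 in fish 2, and -0.53, -0.43, -0.50 and -0.38 in fish 3 to 6. Over all 13735 transcripts the medians were -0.090, 0.15, 0.034, 0.0042, -0.13 and 0.026. The share of slices with EE2 differed between the sides in most fish. In fish 1, EE2 was in 0% of the slices on the side with BaP and in 66.7% of those on the side without. In fish 2 the shares were 50% and 100%, in fish 3, 4 and 6 they were 50% and 66.7%, and in fish 5 alone they were 50% on both sides. The side without BaP thus held more EE2 in 5 of the 6 fish. Fish 1 had only 1 slice on the side with BaP, and fish 2 only 1 on the side without. Fish 3 to 6 had 2 or more on each side. Fish 1 and 2, with the widest gaps between these shares, had the most negative medians, while fish 5, with equal shares, was more negative than fish 4 and 6. Over the 7 chosen transcripts that rose with EE2, the medians in fish 1 to 6 were -0.995, -2.83, -0.21, -0.68, -0.26 and -0.71. Over the other 23 they were -1.08, -0.65, -0.59, -0.36, -0.66 and -0.36. The part of EE2 in these differences was not tested, and in fish 1 and 2 it cannot be told apart from that of the single slices.

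The 7 chosen transcripts that rose with EE2 by edgeR were ranks 1, 2, 3, 4, 11, 13 and 19, and DESeq2 called rank 12 as well. Against DMSO, the mean of both EE2 groups was higher for 78 of 17824 transcripts (0.438%) by edgeR's quasi-likelihood test at an adjusted p of 0.05. Because the choice compared sides with unequal shares of EE2, it partly used this difference, and the count of 7 is a description. Among the 235 transcripts below 0 in all 6 fish, 10 (4.26%) rose with EE2. Among the 199 above 0 it was 0, and among all 13735 it was 65 (0.473%).

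By its ranges over all fish, rank 1 separated the slices by EE2 and not by BaP. Without EE2, its lowest, median and highest levels were 0.372, 0.489 and 0.901 CPM with DMSO, 0.142, 0.310 and 0.752 CPM with BaP 10 nM, and 0.113, 0.354 and 0.761 CPM with BaP 1 µM. With EE2 they were 3.99, 13.9 and 22.8 CPM with EE2 10 nM, 9.81, 20.9 and 30.4 CPM with EE2 1 µM, 2.72, 13.2 and 23.6 CPM with Mix 10 nM, and 8.81, 17.2 and 30.3 CPM with Mix 1 µM. Every slice with EE2 lay above every slice without it, whereas the slices with BaP at 1 µM overlapped DMSO when alone and EE2 1 µM when mixed. Within fish, BaP 1 µM was below DMSO in 4 of 5 fish and Mix 1 µM below EE2 1 µM in 3 of 4. Averaged per fish, these pairs were below 0 in 5 of 5 fish, with a mean of -0.51 ± 0.56 (SD, n = 5 fish). They reuse slices of the choice. The fitted log2 difference of EE2 against DMSO was 4.60 ± 0.37 (SE), and that of Mix 1 µM against BaP 1 µM was 5.21 ± 0.44 (SE). The fitted difference of BaP 1 µM against DMSO was -0.38 ± 0.40 (SE), and that of Mix 1 µM against EE2 1 µM was -0.02 ± 0.36 (SE).

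Rank 2 followed the same order with a wide spread between fish. Without EE2, its lowest, median and highest levels were 0, 0.257 and 4.83 CPM with DMSO, 0, 0.380 and 7.06 CPM with BaP 10 nM, and 0.113, 0.250 and 5.0 CPM with BaP 1 µM. With EE2 they were 0.479, 10.8 and 44.8 CPM with EE2 10 nM, 0.869, 19.5 and 79.2 CPM with EE2 1 µM, 0.283, 16.8 and 52.1 CPM with Mix 10 nM, and 0.175, 18.6 and 76.6 CPM with Mix 1 µM. The groups overlapped through fish 3, which was highest in each group without EE2, and through fish 7 and 8, which were lowest in each group with EE2. In fish 8 the level was 0.188 CPM with DMSO and 0.175 CPM with Mix 1 µM. The fitted log2 difference was 4.78 ± 0.55 (SE) for EE2 against DMSO and -0.06 ± 0.61 (SE) for BaP 1 µM against DMSO.

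Rank 3, with a coding length of 321 bases, was at or near 0 wherever EE2 was absent. It had 1 count in the 8 DMSO slices together, 7 counts in the 7 slices with BaP 10 nM and 0 in the 7 with BaP 1 µM. With EE2, its lowest, median and highest levels were 0, 1.03 and 7.16 CPM at EE2 10 nM, 0.0316, 1.61 and 9.20 CPM at EE2 1 µM, 0, 0.413 and 2.99 CPM with Mix 10 nM, and 0, 1.44 and 8.78 CPM with Mix 1 µM. Its groups overlapped only at or near 0, in slices of fish 7 and 8. No fold is given, since a fitted value against 0 counts depends on the prior count.

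Rank 4 had a median of 0.0521 CPM with DMSO, 0.0894 CPM with BaP 10 nM and 0.0939 CPM with BaP 1 µM, with ranges of 0 to 0.204, 0.0315 to 0.412 and 0 to 0.387 CPM. With EE2 its lowest, median and highest levels were 0, 0.727 and 12.7 CPM at EE2 10 nM, 0, 1.66 and 10.6 CPM at EE2 1 µM, 0.0217, 1.84 and 10.1 CPM with Mix 10 nM, and 0, 2.94 and 8.77 CPM with Mix 1 µM. All 4 lowest values came from fish 7 or 8. The group medians come from different fish. Within fish, BaP 1 µM was below DMSO in 1 of 5 fish, and Mix 1 µM was below EE2 1 µM in 4 of 4, with a mean difference of -0.43 ± 0.28 (SD, n = 4 fish).

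Ranks 11 and 13 had the same order at smaller differences. Rank 11 had lowest, median and highest levels of 0, 0.196 and 0.741 CPM with DMSO, 0.0315, 0.414 and 1.23 CPM with BaP 10 nM, and 0.0211, 0.388 and 0.723 CPM with BaP 1 µM. With EE2 they were 0.0377, 1.26 and 4.11 CPM at EE2 10 nM, 0.0316, 3.03 and 5.03 CPM at EE2 1 µM, 0, 2.39 and 4.48 CPM with Mix 10 nM, and 0, 2.27 and 3.97 CPM with Mix 1 µM. Medians with EE2 were above the highest slice without it, and the lowest slices with EE2 again came from fish 7 and 8. Rank 13 had lowest, median and highest levels of 0.666, 1.37 and 2.46 CPM with DMSO, 0.914, 1.30 and 3.01 CPM with BaP 10 nM, and 0.371, 1.24 and 3.21 CPM with BaP 1 µM. With EE2 they were 1.30, 2.67 and 18.1 CPM at EE2 10 nM, 2.78, 3.86 and 15.1 CPM at EE2 1 µM, 0.826, 5.61 and 9.24 CPM with Mix 10 nM, and 0.551, 4.51 and 12.6 CPM with Mix 1 µM. Its slices with EE2 1 µM all lay above its DMSO slices but overlapped those with BaP 10 nM and BaP 1 µM. Its other groups with EE2 overlapped those without EE2. Its fitted log2 difference of EE2 against DMSO was 1.79 ± 0.21 (SE).

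Rank 19 was the transcript with the smallest rise with EE2 among the 7, at a fitted log2 difference of 0.82 ± 0.20 (SE). Its lowest, median and highest levels were 10.9, 20.4 and 35.7 CPM with DMSO, 9.29, 19.6 and 28.4 CPM with BaP 10 nM, and 8.98, 22.9 and 32.4 CPM with BaP 1 µM. With EE2 they were 19.96, 42.2 and 111 CPM at EE2 10 nM, 23.7, 28.1 and 43.0 CPM at EE2 1 µM, 20.6, 31.6 and 69.9 CPM with Mix 10 nM, and 16.5, 28.1 and 48.7 CPM with Mix 1 µM. All its groups overlapped. Within fish, BaP 1 µM was below DMSO in 2 of 5 fish and Mix 1 µM below EE2 1 µM in 3 of 4. The adjusted p for EE2 against DMSO was 0.0375 by edgeR and ranged from 0.00021 to 1.00 over 13 alternatives, of which 5 passed.

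**Figure D2:**
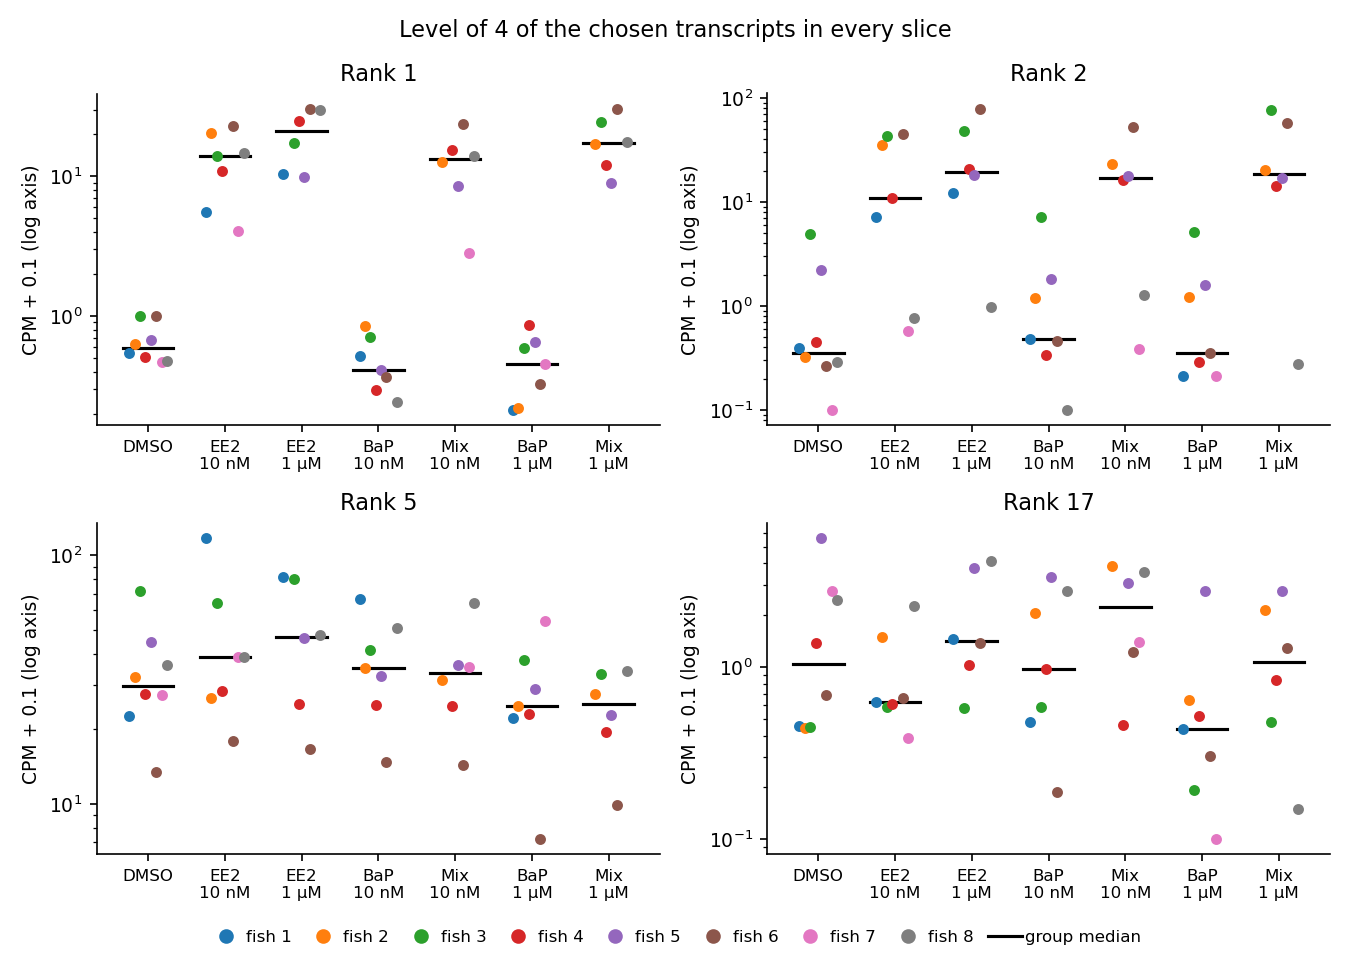
Level (CPM + 0.1, log axis) of the transcripts at ranks 1, 2, 5 and 17 in all 47 slices, by group, with points coloured by fish and lines at the group median. Rank 1 has medians of 0.310 to 0.489 CPM in the groups without EE2 and of 13.2 to 20.9 CPM in those with EE2, while the groups of ranks 5 and 17 overlap.

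A rise with EE2 that the choice had not used was read at 10 nM, from a fit of only the 13 libraries with BaP 10 nM or Mix 10 nM, none of which entered the choice. Of 16466 transcripts, 9 (0.0547%) were higher with Mix 10 nM by edgeR and 0 were lower. Of the chosen transcripts 28 passed the expression filter and 3 rose, at ranks 1, 2 and 13. The log2 difference was 5.36 ± 0.42 (SE) for rank 1, and its edgeR adjusted p of 0.00823 ranged from 2.72e-42 to 0.0410 over 13 alternatives. It was 5.0 ± 0.53 (SE) for rank 2 and 1.73 ± 0.19 (SE) for rank 13, each with an edgeR adjusted p of 0.0244. Over the alternatives, 9 of 13 passed for rank 2 and 8 of 13 for rank 13. Only fish 2, 4, 5, 6 and 8 had both a BaP 10 nM and a Mix 10 nM slice, so the difference within fish rests on them. Leaving out fish 1, 3 or 7 could therefore hardly change it. Leaving out the apart libraries removed the BaP 10 nM slice of fish 6 and nearly repeats leaving out that fish. Rank 2 did not pass without fish 2, 4 or 8 or without the fish block, and rank 13 did not pass without fish 2, 4, 5 or 8 or without the block. DESeq2 found 41 transcripts higher (0.249%), among them 5 of the chosen ones, at ranks 1, 2, 11, 12 and 13. Rank 12 is not among the 7 that rose with EE2 against DMSO by edgeR. DESeq2 did call it there, with a log2 difference of 1.42 ± 0.38 (SE) at an adjusted p of 0.0376. Each of the 5 transcripts tested here that rose with EE2 against DMSO was above 0, with a median of 2.09, and the other 23 had a median of 0.18 against 0.00 over all transcripts. With BaP also at 1 µM, Mix against BaP alone was higher for 48 of 17824 transcripts (0.269%), among them ranks 1, 2, 3, 4, 11 and 13. Rank 11 passed in 7 of 13 alternatives, and not without fish 2, 3, 4, 5 or 6 or without the block.

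With controls that made EE2 the same on both sides, the median of the chosen transcripts lay closer to 0. The median of the 23 not called for a rise with EE2 hardly moved. In the fit of all 47 libraries, the contrast that repeats the choice gave 1 lower transcript (0.00561%) and 24 higher ones by edgeR, with 1671 at an unadjusted p under 0.05. By DESeq2 13 were lower (0.0729%). Among the chosen transcripts 0 passed by edgeR, 17 had an unadjusted p under 0.05 and DESeq2 called 2, at ranks 22 and 29. The choice used this contrast, so these counts are a description. Their median log2 difference was -0.50 against -0.0089 over all transcripts tested. With DMSO and EE2 1 µM as the only controls, so that EE2 was balanced, 2 transcripts (0.0112%) were lower by edgeR and 5 (0.0281%) by DESeq2, with 1676 at an unadjusted p under 0.05 by edgeR. Of the chosen transcripts 0 passed by edgeR and 0 by DESeq2, 13 had an unadjusted p under 0.05, and the median was -0.36. The 7 that rose with EE2 went from a median of -0.65 to -0.21 between these contrasts, and the other 23 from -0.49 to -0.45. Of the 30 differences, 27 stayed below 0, against 51.0% of all transcripts tested. The contrast with EE2 balanced also dropped the slices with the lower EE2 level, which the choice had used as controls. The part of equal EE2 in these shifts was not tested apart from that of the dropped slices.

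**Figure D3:**
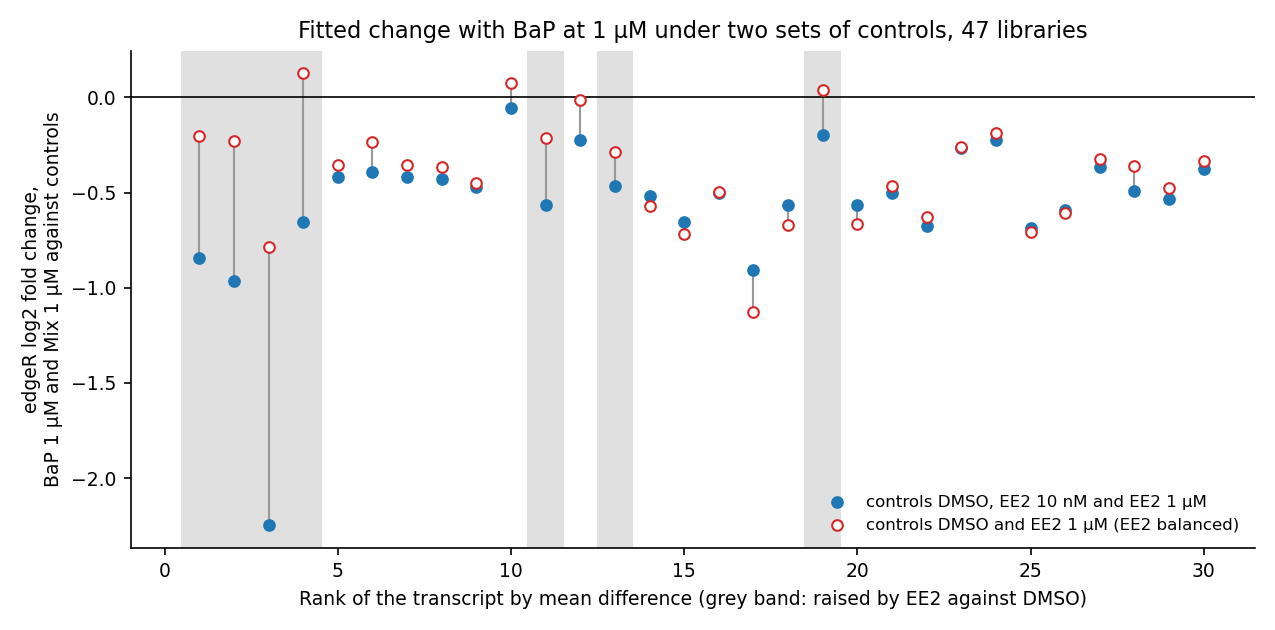
Fitted edgeR log2 difference of the 30 chosen transcripts for BaP 1 µM and Mix 1 µM against controls, with controls DMSO, EE2 10 nM and EE2 1 µM (filled) or DMSO and EE2 1 µM (open), by rank. In the grey bands, which mark the 7 that rose with EE2, the median moves from -0.65 to -0.21, and among the other 23 it moves from -0.49 to -0.45.

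Reading slices without EE2 and slices with EE2 apart gave no call among the chosen transcripts. For BaP 1 µM against DMSO, 0 of 17824 transcripts (0%) were lower by edgeR, 12 were higher and 1237 had an unadjusted p under 0.05. Of the chosen transcripts 0 passed by edgeR or DESeq2, 6 had an unadjusted p under 0.05 and 26 lay below 0, with a median of -0.35. Over all transcripts tested, 51.1% lay below 0. For Mix 1 µM against EE2 1 µM, 0 (0%) were lower by edgeR, 6 were higher and 795 had an unadjusted p under 0.05. Of the chosen transcripts 0 passed by edgeR or DESeq2, 5 had an unadjusted p under 0.05 and 27 lay below 0, with a median of -0.43. Over all transcripts tested, 50.9% lay below 0. Both comparisons reuse slices of the choice. The test of whether the difference with BaP depended on EE2 called 0 of 17824 transcripts (0%) by edgeR and by DESeq2, with 440 at an unadjusted p under 0.05 and 0 of them chosen transcripts.

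The single transcript that was lower by edgeR in the contrast of the choice was not among the 30. By edgeR its log2 difference was -0.47 ± 0.088 (SE) at an adjusted p of 0.00689, with a mean of 20.5 CPM, and it was below 0 in 5 of 6 fish. The other one that was lower with EE2 balanced had a log2 difference of -1.40 ± 0.30 (SE), at a p of 0.0457 after edgeR's adjustment. Its mean was 0.333 CPM, which is under the limit of the choice. Without the 4 libraries that stood apart, 15 of 17930 transcripts (0.0837%) were lower in the contrast of the choice. Of these 7 were chosen transcripts, at ranks 1, 5, 7, 8, 16, 21 and 22. Ranks 5, 7 and 8 had near-identical profiles and may share reads, so they are not separate calls. With EE2 balanced as well, 11 (0.0613%) were lower, and 1 of them was a chosen transcript, at rank 16, with a log2 difference of -0.58 ± 0.13 (SE) at an adjusted p of 0.0371 by edgeR. Without the 4 libraries, all slices with BaP at 1 µM are slices of the choice. The calls of chosen transcripts are thus a description and no independent reading.

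Pairing slices within a fish removed the unequal share of EE2 from the differences themselves. For the 5 fish with such pairs (BaP 1 µM with DMSO, Mix 1 µM with EE2 1 µM), the median over the 30 was -0.41 in fish 1, -0.31 in fish 3, -0.44 in fish 4, -0.50 in fish 5 and -0.39 in fish 6. Of the 30, 25, 25, 29, 30 and 27 lay below 0 in these fish, against 43.6%, 60.7%, 54.0%, 76.5% and 59.7% of all transcripts. In all 5 fish 19 of the 30 lay below 0, against 8.19% of all transcripts. They were 2 of the 7 that rose with EE2 and 17 of the other 23. These pairs reuse slices of the choice, so the counts are no independent reading. Choosing 30 anew from the matched pairs shared 5 transcripts with the first choice, none of which rose with EE2.

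Over single pairs, 6 of the 30 lay below 0 for BaP 1 µM minus DMSO in all 5 fish, against 6.41% of all transcripts. For Mix 1 µM minus EE2 1 µM it was 18 in all 4 fish, against 11.4%. Ranks 5, 7, 16 and 17 lay below 0 in every such pair of these fish, as did 1.14% of all transcripts. Of these, ranks 5 and 7 had near-identical profiles and may share reads.

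Rank 5 had the highest mean level among the 30, at 36.2 CPM. Without BaP its lowest, median and highest levels were 13.4, 29.8 and 71.7 CPM with DMSO, 17.8, 38.7 and 118 CPM with EE2 10 nM, and 16.5, 47.0 and 82.0 CPM with EE2 1 µM. With BaP they were 14.6, 35.1 and 66.7 CPM at BaP 10 nM, 14.2, 33.4 and 64.5 CPM with Mix 10 nM, 7.10, 24.8 and 54.5 CPM at BaP 1 µM, and 9.74, 25.1 and 34.2 CPM with Mix 1 µM. All groups overlapped, and fish 6 was lowest in each of them. Within fish, the matched pairs gave a mean of -0.62 ± 0.43 (SD, n = 5 fish), in the range of -1.44 to -0.03 that its 6 differences had in the choice. Its fitted log2 difference with EE2 balanced was -0.36 ± 0.21 (SE), at an adjusted p of 0.512 by edgeR. This fit held the apart libraries of fish 7 and 8, which the pairs did not. Fish 7 had 54.5 CPM with BaP 1 µM against 27.3 CPM with DMSO. Fish 8 had 34.2 CPM with Mix 1 µM against 47.5 CPM with EE2 1 µM.

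Rank 17 had the lowest mean level, at 1.18 CPM, and a coding length of 15573 bases. Without BaP its lowest, median and highest levels were 0.342, 0.938 and 5.53 CPM with DMSO, 0.288, 0.526 and 2.17 CPM with EE2 10 nM, and 0.475, 1.32 and 4.03 CPM with EE2 1 µM. With BaP they were 0.0894, 0.871 and 3.22 CPM at BaP 10 nM, 0.358, 2.15 and 3.78 CPM with Mix 10 nM, 0, 0.338 and 2.66 CPM at BaP 1 µM, and 0.0501, 0.968 and 2.67 CPM with Mix 1 µM. Its groups overlapped, and the spread between fish within a group was wider than the difference between group medians. Its 6 differences in the choice ran from -0.35 to -0.81, which is the narrowest spread of the 30 at an SD of 0.19. The fitted log2 difference with EE2 balanced was -1.13 ± 0.36 (SE), at an adjusted p of 0.411 by edgeR. This fit held the apart libraries of fish 7 with BaP 1 µM (0 counts) and fish 8 with Mix 1 µM (2 counts), both at the floor. Without the 4 apart libraries no chosen transcript was under -0.907 in this contrast. The matched pairs of rank 17 within fish gave a mean of -0.61 ± 0.31 (SD, n = 5 fish).

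At the limit of the choice, differences between groups were small beside the spread between fish. Rank 29 had medians of 2.51 CPM with DMSO, 2.65 with EE2 10 nM, 2.98 with EE2 1 µM, 2.77 with BaP 10 nM, 3.85 with Mix 10 nM, 1.91 with BaP 1 µM and 2.0 with Mix 1 µM, within a range of 0.556 to 7.74 CPM. Rank 30 had medians of 3.81, 3.57, 4.76, 4.16, 5.36, 3.21 and 3.25 CPM in the same order, within 1.05 to 10.7 CPM. Both had their lowest group medians with BaP at 1 µM, alone or mixed, but all of their groups overlapped. Just outside, rank 31 had medians of 3.20, 2.40, 3.67, 2.48, 2.93, 2.55 and 2.67 CPM, within 0.0751 to 28.2 CPM. Rank 32 had medians of 1.53, 1.06, 1.68, 1.68, 1.74, 1.00 and 1.09 CPM, within 0 to 3.52 CPM.

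Most of the 30 had a low level. The choice used the level through its limits of 1 and 500 CPM and the added 0.1 CPM, so this is a description. With 1 CPM added instead, the choice shared 23 of the 30. Their mean level ran from 1.18 to 36.2 CPM with a median of 3.43 CPM, against a median of 11.5 CPM over all 13735. Under 5 CPM lay 19 of the 30, against 28.5% of all. Another 6 had 5 to 20 CPM, and 5 had 20 CPM or more. Their coding lengths ran from 321 to 16773 bases, with a median of 924 against 1176 bases. The share of counts that were unmapped mates had a median of 19.7% in the 30 and 20.9% in all.

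The chosen transcripts did not vary as 1 group. After subtracting each fish's mean, the correlation between 2 of them over the 47 slices had a median of 0.29 and ran from -0.49 to 0.999 over 435 pairs that share libraries and depth. Among the 7 that rose with EE2 the median was 0.84, among the other 23 it was 0.29, and between these it was 0.27. The 7 were picked for that rise in the same libraries, so their higher correlation was partly set by the pick. Ranks 5, 7 and 8, ranks 18 and 20, and ranks 27 and 30 formed 3 groups with a correlation of 0.98 or more and lengths within 5%. These 7 transcripts may share reads from near-identical copies, so their separate values are uncertain and the set holds 26 distinct profiles. Outside the set, the 3 transcripts whose profile was most like the mean of the 30 had correlations of 0.927, 0.920 and 0.916 over the 26 slices. They were below 0 in 5, 4 and 5 of the 6 fish, so the rule did not take them, and all 3 rose with EE2 against DMSO, by 1.37, 1.18 and 1.38 on the log2 scale.

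Choosing 30 transcripts in 5 fish and reading them in the one left out shows the same measure in slices that did not choose. The median difference in the fish left out was -0.82 in fish 1, 0.098 in fish 2, -0.0043 in fish 3, -0.33 in fish 4, -0.27 in fish 5 and -0.36 in fish 6. Below 0 lay 25, 14, 16, 24, 26 and 25 of the 30, against 62.0%, 33.4%, 43.4%, 49.2%, 76.5% and 43.1% of all transcripts. The share was above that of all transcripts in each of the 6 fish, by the least in fish 2, 3 and 5. This depended on the scaling. On TMM-scaled CPM the share in fish 3 was 50.0% against 50.2% of all, so not above, and in fish 2 it was 56.7% against 53.5%. With 1 CPM added it was 33.3% against 33.1% in fish 2. In fish 2 and 3 the medians were within 0.1 of 0. The 6 choices shared 14 to 25 transcripts with the 30, and 4 to 13 of each choice rose with EE2.

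With EE2-matched pairs the medians in the fish left out were 0.085 in fish 1, -0.098 in fish 3, -0.25 in fish 4, -0.33 in fish 5 and -0.24 in fish 6. Below 0 lay 13, 18, 19, 25 and 25 of the 30, against 43.7%, 60.7%, 54.1%, 76.5% and 59.8% of all transcripts. In fish 1 and 3 the share was not above that of all transcripts. Fish 1, with the most negative median in the first reading, was above 0 in the second. The readings chose different transcripts: of those read in fish 1, 9 rose with EE2 in the first and 1 in the second. In the first, the EE2 share of fish 1 was 0% with BaP against 66.7% without. The part of EE2 in this change was not tested.

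**Figure D4:**
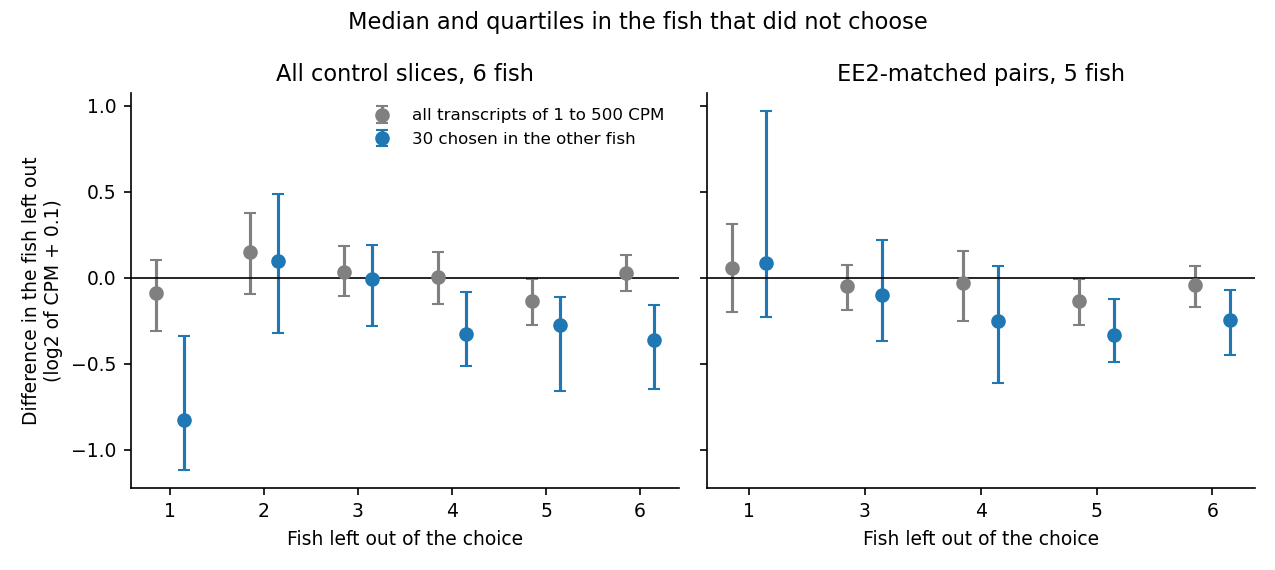
Difference (log2 of CPM + 0.1) in the fish left out, for 30 transcripts chosen in the other fish (blue) and for all transcripts of 1 to 500 CPM (grey); points are medians and bars run from the lower to the upper quartile. With all control slices (left) the blue median in fish 1 is -0.82, and with EE2-matched pairs (right) it is 0.085.

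Fish 7 and 8 had no part in the choice, but each had only 1 slice with BaP at 1 µM, and both of those libraries stood apart. A fit of their 10 libraries had terms for fish and BaP level but none for EE2, whose share differed between the sides in both fish. In that fit, 9192 of 17055 transcripts (53.9%) passed the edgeR test for BaP at 1 µM. Of the 30, 27 were tested, 7 fell and 4 rose. These 11 are a smaller share than that of all transcripts, and the median log2 difference was 0.27, which turned to -0.073 without fish 8. The rises were at ranks 5, 7, 8 and 10, and the falls included rank 17, at 0 counts with BaP 1 µM in fish 7. Among the rises, ranks 5, 7 and 8 had near-identical profiles and may share reads. On the scale of the choice the median was -0.21 in fish 7 and -0.45 in fish 8, but over all transcripts it was -0.60 and -1.20. After TMM scaling, which moved the median of all transcripts to 0.040 and -0.14, the chosen transcripts had medians of 0.062 and -0.039. Rank 5 stood at 54.5 CPM with BaP 1 µM in fish 7 against 27.3 CPM with DMSO, and at 34.2 CPM with Mix 1 µM in fish 8 against 35.9 CPM with DMSO and 47.5 CPM with EE2 1 µM. The part of the apart libraries in these values was not tested.

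At 10 nM of BaP no transcript passed the edgeR test with all libraries kept. Against the slices without BaP, which this comparison shares with the choice, 0 of 17824 transcripts (0%) passed by edgeR, 227 had an unadjusted p under 0.05, and DESeq2 called 1, which was rank 1. Of the 30, 29 lay below 0, against 53.2% of all transcripts tested. The median of the 30 was -0.23. For rank 1 the log2 difference was -1.33 ± 0.25 (SE), at an adjusted p of 0.107 by edgeR. Without the 4 apart libraries edgeR called 2 of 17930 transcripts, among them rank 1, at an adjusted p of 0.00948. The share of EE2 differed between the sides here too. In fish 7 and 8 alone, 0 of 17055 transcripts (0%) passed by edgeR or DESeq2, 84 had an unadjusted p under 0.05, and the median over 27 chosen transcripts was 0.019. That fit had no term for EE2, and the share of EE2 differed between its sides as well.

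Between female and male fish, compared in the 8 DMSO slices, 0 of 16813 transcripts (0%) passed by edgeR and 338 had an unadjusted p under 0.05. DESeq2 called 12 transcripts, 0 of them among the 28 chosen transcripts tested. The median over those 28 was -0.13 for female minus male, and without fish 2, 3 or 8 it was 0.17, -0.54 and 0.19.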

How the data were processed

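Slices were frozen before RNA isolation and DNase treatment, then converted to stranded mRNA libraries for Illumina sequencing, per the labels' protocols. The deposited tables give, per transcript, a coding length, the count of mapped reads and the count of unmapped reads with a mapped mate. FastQC 0.11.5, HISAT2 2.1.0 and SAMtools 1.4.1 are named in the submitters' processing notes, but their roles, the genome build and the counting options are not given in sources used here. The deposited counts are whole numbers and were not normalized, and transcripts of near-identical or overlapping genes may share reads. Reads placed on no transcript (41.8% to 57.8% per library) were left out of library sizes and tests. None of the 22100 identifiers matched the gene name table (gadMor3.0, 33114 genes), so gene lists and cell type markers could not be applied.

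Counts were tested with the quasi-likelihood test of edgeR 4.0.16 (R 4.3.3) on TMM-scaled libraries, with its expression filter by group (minimum count 10, minimum total 15), group and fish as terms, Benjamini-Hochberg adjustment over all transcripts tested and a threshold of 0.05. The fit of all 47 libraries held 17824 transcripts. Fish 7 and 8, the BaP 10 nM and Mix 10 nM libraries, and the DMSO slices by sex (without the fish term) had fits of their own. The fit of fish 7 and 8 had BaP level in place of group and no term for EE2. DESeq2 1.42.0, other size factors, no filter, no fish block, no apart libraries, and leaving out each fish were tried. Scripts were tested on simulated data.

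Slices of 1 number come from 1 fish. Their deviations from the group means correlated at 0.650 on average, against -0.098 between fish, and no 2 libraries had identical counts. Each group holds at most 1 slice per fish. In fits with fish as a term, p-values measure the spread between slices that is left after fish and group means are removed. The fit by sex had no fish term, so its p-values measure the spread between animals. At 3 counts or fewer a level is at its floor.

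The rule and the members were chosen with earlier results of these data known, as were the exposure check and the apart libraries. Identifiers are printed for ranks 1 and 2 and for the exposure check. Levels by group are given for ranks 1 to 5, the members with the highest and lowest mean level, and ranks 29 to 32. They are also given for members that passed a test outside the rule in the main edgeR fits. Members that passed in fish 7 and 8 at 1 µM were exempted, because most transcripts passed there. EE2 against DMSO and Mix 1 µM against BaP 1 µM were planned as independent of the rule, but its sides held unequal shares of EE2, so they are given as a description. The EE2-matched and EE2-balanced readings and the fit at 10 nM were added after seeing the data.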

Additional observations from a re-analysis of the deposited data

Results flagged for a closer look

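Levels by group were screened for slices far from the rest of their group in 83 groups of 6 to 8 slices, of which chance would single out about 1 in 20. In 3 of them a slice stood out, all from fish 8. Rank 2 had its lowest Mix 1 µM level in fish 8, at 0.1753 CPM from 7 counts, and the nearest other slice was at 14.2 CPM. Rank 11 had its lowest Mix 1 µM level in the same library, at 0 CPM, and the nearest other slice was at 1.33 CPM. That library is one of the 4 that stood apart, with a TMM factor of 0.572. Low values of both transcripts were not confined to it within fish 8. There rank 2 was at 0.659 CPM with EE2 10 nM, 0.869 with EE2 1 µM and 1.18 with Mix 10 nM. Rank 11 was at 0.0377 CPM or less in every slice of fish 8. The part of the library in these values was not tested. Rank 3 had its highest DMSO level in fish 8, at 0.01708 CPM, which is 1 count where the other DMSO slices held 0.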

How the results depend on the processing

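Across the alternatives no called result changed direction, and for the main comparisons 253 values stayed within the limits set for a change and 65 moved. Calls with BaP 1 µM against no BaP were 25, and 60 with DESeq2, 9 with no replicate block, 54 without the 4 apart libraries and 9 to 28 without a fish (9 without fish 4). Chosen transcripts called there were 2 with DESeq2, 7 without the 4 libraries and 0 to 1 without a fish (1 without fish 6). With EE2 balanced the count was 17, and 39, 6, 43 and 6 to 19 (under 12 without fish 2, 3, 4, 5, 6 or 8), with 1 chosen transcript called without the 4 libraries. Against DMSO it was 12, and 31, 6, 23 and 7 to 11 (7 without fish 4). Mix 1 µM against EE2 1 µM gave 3 to 6 without a fish (3 without fish 4). BaP 10 nM gave 1 with DESeq2 and 2 without the 4 libraries, each with 1 chosen transcript. EE2 against DMSO gave 83, and 25 without the block and 164 without the 4 libraries, with 3 chosen transcripts called without the block. Mix 1 µM against BaP 1 µM gave 54, and 83 with DESeq2, 12 without the block, 89 without the 4 libraries and 31 to 57 without a fish (31 without fish 3), with 2 chosen transcripts called without the block. Mix 10 nM against BaP 10 nM gave 9, and 53 with DESeq2, 17 with no filter, 1 without the block, 17 without the 4 libraries and 1 to 20 without a fish (2 or fewer without fish 2, 4, 5 or 8, and 20 without fish 6). Chosen transcripts called there were 5 with DESeq2 or no filter, 1 without the block and 1 to 4 without a fish (1 without fish 2 or 4). The DESeq2 count between sexes was 12. The fish 7 and 8 median at 1 µM was -0.073 without fish 8. Below 0 in all fish lay 127 transcripts with the DMSO slice of fish 2, 1125 with EE2-matched pairs and 287 to 669 without a fish (402 or more without fish 2, 3, 4 or 6), and above 0 lay 303 with TMM scaling and 259 to 732 without a fish (732 without fish 5). The new choices shared 19 of the 30 with that DMSO slice, 5 with matched pairs and 14 to 25 without a fish (14 without fish 2, 15 without fish 3). Fewer fish to agree in and fewer pairs are part of these alternatives by construction, and other causes were not tested. Levels under 0.0820 CPM are at the limit of depth.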
